A study of Mus musculus with 8 samples.

Results

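Genes of B lymphocytes and of the antibody-secreting plasma cells they become were followed array by array in pancreatic islets. The genes are Igkv15-103, Cd79a, Cd79b, Ms4a1, Mzb1 and Jchain, named by symbol. All probe sets that carry 1 of these symbols alone were taken, and where a gene had several, the one brightest on average represented it. This gave 5 genes of the 17097 measured, on 6 probe sets, because Ms4a1 has 2. Mzb1 was not analysed here. Igkv15-103 was picked because of its difference between groups on these same arrays, so its differences are given as a description with no test.

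Total RNA of islets from 20-week-old mice had been hybridised to 8 arrays, 2 for each of 4 groups. All groups carry the strain label FVB/N-Tg(Ins2-IAPP)RFHSoel/J, and were either wild type or transgenic for hIAPP, human islet amyloid polypeptide, whose expression the insulin 2 promoter drives in beta cells. Mice of each genotype were left untreated or received 4-phenylbutyrate (PBA), which acts as a chemical chaperone. The dose was 1 g/kg/day over 12 weeks, begun at the age of 8 weeks. The study asked about amyloid and beta-cell function under PBA, and the labels name neither a sort of immune cells nor whether an array holds 1 animal or a pool, so the p-values cover only how far these samples vary.

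B lymphocytes recognise antigen through a surface immunoglobulin that signals through the paired proteins Cd79a and Cd79b. Ms4a1 (CD20) is a surface protein of B cells that is lost when they become plasma cells. Plasma cells secrete antibody, and Jchain joins antibody units into polymers that epithelia can carry across. Igkv15-103 is a variable segment of the kappa light chain, and a rearranged kappa chain uses only 1 of many such segments.

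The tissue label was met by its hormones, with Ins2 at 14.0 to 14.1 and Gcg at 12.9 to 13.1 on the log2 scale on all arrays. The label of B cells was met in part. Ms4a1 reached 8.7, while Pax5, a transcription factor that defines B cells, stayed at 3.2 to 3.9 on all 8 arrays. The level of background used here, 4.68, is the 95th percentile of 23 control probe sets that match no transcript, whose median was 3.1. Other transcription factors on the B cell identity list were mixed. Bcl11a was above it on 8 arrays, Ebf1 on 7, Pou2af1 on 3, Spib on 2 and Pou2f2 on 0. Of the plasma cell regulators, Irf4 (3.3 to 3.8) and the survival receptor Tnfrsf17 (3.1 to 3.6) also stayed below it. Prdm1, a further regulator on that list, read 4.7 to 5.7 and was above it on all 8 arrays. Xbp1, which plasma cells share with other secretory cells such as islet cells, was at 11.7 to 12.0. In RNA of whole islets, fewer B cells and less RNA per B cell cannot be told apart.

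Promoter sequences are shown for the members that have one in the RefSeq table (GRCm38.p6), Cd79a and Jchain. Those of Bank1, whose pattern was among the nearest to Cd79b and Ms4a1, and of Blnk, the adaptor called in both main comparisons, are shown beside them. Each sequence is the 250 bases before the annotated start, 5′ to 3′ on the gene's strand, with motif matches in capitals. The windows are chr7:24897247-24897496 (plus strand) for Cd79a, chr5:88527898-88528147 (minus strand) for Jchain, chr3:136326067-136326316 (minus strand) for Bank1 and chr19:40994222-40994471 (minus strand) for Blnk.
Cd79a: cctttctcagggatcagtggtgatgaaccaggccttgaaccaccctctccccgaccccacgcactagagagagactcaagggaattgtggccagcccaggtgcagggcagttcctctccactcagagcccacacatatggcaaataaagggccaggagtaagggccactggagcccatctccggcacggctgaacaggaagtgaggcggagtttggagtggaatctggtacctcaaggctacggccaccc
Jchain: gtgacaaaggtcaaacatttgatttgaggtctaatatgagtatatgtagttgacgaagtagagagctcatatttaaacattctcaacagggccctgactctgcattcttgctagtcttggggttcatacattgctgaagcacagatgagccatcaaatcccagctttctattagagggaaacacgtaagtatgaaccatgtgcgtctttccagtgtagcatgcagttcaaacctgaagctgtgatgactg
Bank1: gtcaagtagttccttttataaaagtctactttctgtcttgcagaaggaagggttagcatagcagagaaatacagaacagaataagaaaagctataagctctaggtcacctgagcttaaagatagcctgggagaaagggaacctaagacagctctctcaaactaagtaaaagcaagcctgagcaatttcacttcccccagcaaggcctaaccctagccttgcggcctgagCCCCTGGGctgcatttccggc
Blnk: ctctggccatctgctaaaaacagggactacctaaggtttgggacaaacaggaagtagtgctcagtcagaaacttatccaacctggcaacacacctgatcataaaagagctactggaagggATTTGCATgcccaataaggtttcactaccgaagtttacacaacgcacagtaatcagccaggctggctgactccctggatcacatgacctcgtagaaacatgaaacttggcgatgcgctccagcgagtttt

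The motifs searched on both strands were the octamer ATGCAAAT, a PU.1-type GAGGAAGT and an EBF-type CCCNNGGG. The octamer was found in 435 of 27025 promoters (1.61%), and in 3 of the 40 available promoters of B-lineage genes, those of Prkcb, Blnk and Pim2. The capitals in Blnk mark it on the opposite strand, where it reads ATTTGCAT, 130 to 123 bases before the start. The EBF-type motif was in 3150 promoters (11.7%) and in 5 of the 40, and lies 21 to 14 bases before the start of Bank1. The PU.1-type motif was in 660 promoters (2.44%) and in 2 of the 40. Neither Cd79a nor Jchain held any of these letters in its window, which says nothing of the factors themselves.

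Among the B-cell surface genes, Ms4a1 had the widest range. In wild-type islets it read 7.9 and 4.7 untreated and 3.4 and 4.3 with PBA. In hIAPP islets it read 7.8 and 8.7 untreated and 6.9 and 4.7 with PBA. Thus 4 arrays were high, both untreated hIAPP arrays, replicate 1 of untreated wild type and replicate 1 of PBA-treated hIAPP, and the untreated wild-type and hIAPP arrays overlapped. Its other probe set, read separately, gave 5.2 and 3.9, 3.6 and 3.3, 4.8 and 6.5, and 4.5 and 3.8 in the same order. The group means of both probe sets ran in the same order, from untreated hIAPP through untreated wild type and PBA-treated hIAPP to PBA-treated wild type.

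Cd79b followed a similar course at a smaller amplitude. Its values were 5.8 and 4.5 in untreated wild type, 3.8 and 4.0 in PBA-treated wild type, 5.6 and 6.3 in untreated hIAPP, and 5.0 and 3.9 in PBA-treated hIAPP islets. Replicate 1 of untreated wild type lay between the untreated hIAPP arrays, and 4 of 8 arrays were above background. Cd79a, the partner of Cd79b in the receptor, read 5.1 and 4.9, 5.2 and 5.0, 5.1 and 5.7, and 5.5 and 5.2 in the same order. It was above background on all 8 arrays, spanned 0.8 in all, and every group overlapped its neighbours in the order of means.

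Of the plasma cell genes, Jchain read 8.5 and 5.3 in untreated wild type, 4.5 and 4.9 in PBA-treated wild type, 9.5 and 9.4 in untreated hIAPP, and 5.9 and 6.9 in PBA-treated hIAPP islets. The untreated hIAPP arrays were above all others, and replicate 1 of untreated wild type came next. Igkv15-103 read 5.9 and 3.2, 3.3 and 3.5, 8.6 and 9.1, and 3.2 and 4.0 in that order of groups. It was above background on 3 arrays, both of untreated hIAPP islets and replicate 1 of untreated wild type.

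**Figure D1:**
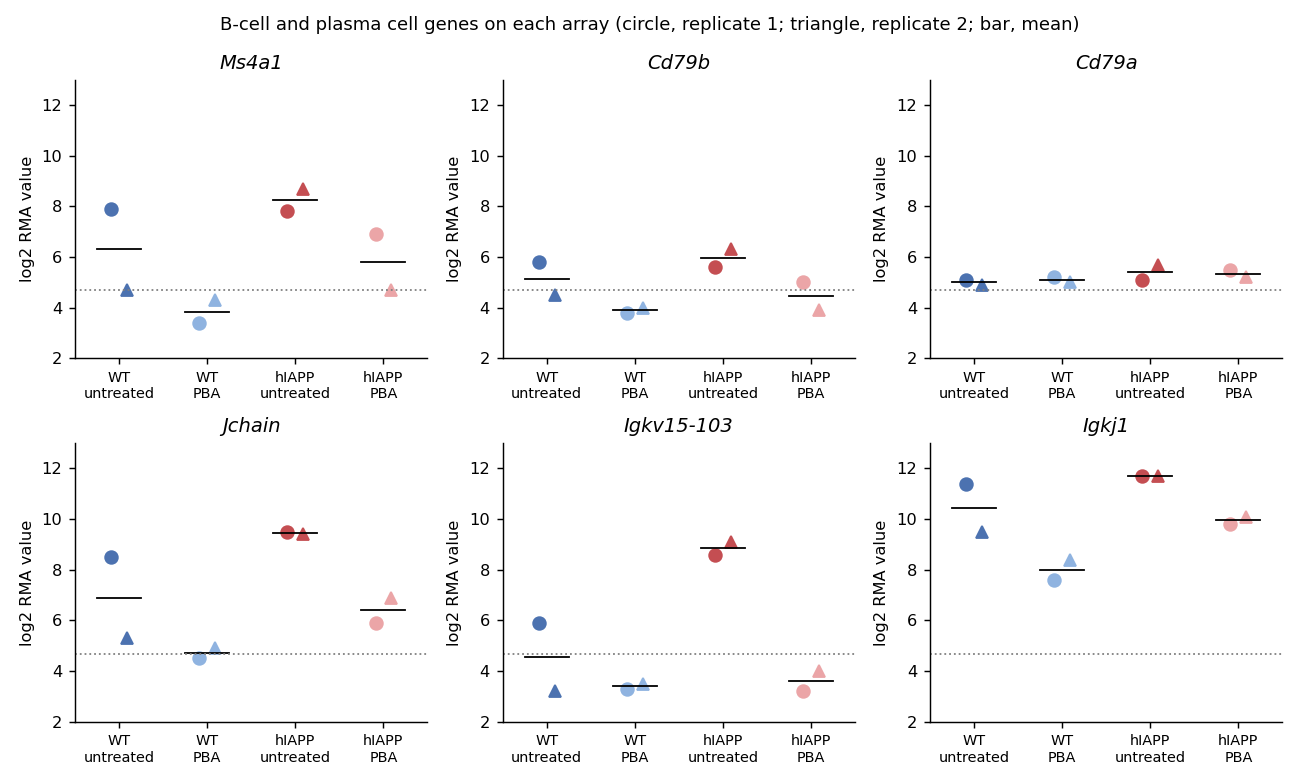
Log2 expression of the 5 measured genes and of the kappa joining segment Igkj1 on each of the 8 arrays, grouped by genotype (WT, wild type) and treatment, with replicate 1 as a circle, replicate 2 as a triangle and the group mean as a bar, with the background level (4.68) as a dotted line. Ms4a1, Cd79b and Jchain are high on both untreated hIAPP arrays and on replicate 1 of untreated wild type, while Cd79a spans 0.8.

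Group means placed Igkv15-103, Cd79b, Ms4a1 and Jchain in 1 order, with untreated hIAPP highest, then untreated wild type, PBA-treated hIAPP and PBA-treated wild type. For Jchain these means were 9.45 ± 0.07, 6.9 ± 2.26, 6.4 ± 0.71 and 4.7 ± 0.28 (SD, n = 2 each). For Ms4a1 they were 8.25 ± 0.64, 6.3 ± 2.26, 5.8 ± 1.56 and 3.85 ± 0.64. Neighbours in the order without overlap were untreated hIAPP and untreated wild type for Igkv15-103 and Jchain, and the PBA-treated groups for Jchain and Ms4a1. All other neighbours overlapped.

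Without PBA, none of the 4 tested members differed between hIAPP and wild-type islets past the threshold (limma, Benjamini-Hochberg adjusted p below 0.05), where 11.0% of all genes did. At an unadjusted p under 0.05 there was 1 of the 4. The share of all genes at that unadjusted level was not counted, here or below, so such counts have no background beside them. Jchain was 2.55 higher in hIAPP islets (SE 0.89, adjusted p = 0.125) and was the 1 tested member whose arrays did not overlap, against 20.8% of all genes that were higher without overlap. Ms4a1 was 1.95 higher (SE 1.08, adjusted p = 0.315), Cd79b 0.8 (SE 0.49, adjusted p = 0.374) and Cd79a 0.4 (SE 0.21, adjusted p = 0.296). The mean of Igkv15-103 was 8.85 ± 0.35 in hIAPP and 4.55 ± 1.91 in wild-type islets (SD, n = 2 each), a log2 difference of 4.3.

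The size of these differences turned on which wild-type array was used. Against replicate 1 of untreated wild type, the untreated hIAPP mean was higher by 0.35 for Ms4a1, 0.15 for Cd79b and 0.95 for Jchain. Against replicate 2 it was higher by 3.55, 1.45 and 4.15. For Igkv15-103 the same differences were 2.95 and 5.65, so it stood above both arrays. Without replicate 1 of untreated wild type, Jchain passed the threshold for the transgene (4.15, adjusted p = 0.0154), and without replicate 2 it did not (0.95, adjusted p = 0.321). Each of these fits leaves 1 untreated wild-type array, which is assumed to vary like the arrays of the other groups.

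In hIAPP islets, PBA-treated arrays lay below untreated ones without overlap for 3 of the 4 tested members, Ms4a1, Cd79b and Jchain, where 20.8% of all genes were lower without overlap. None of the 4 passed the threshold, which 8.09% of all genes did, and 2 had an unadjusted p under 0.05. Jchain was lower by a log2 difference of -3.05 (SE 0.89, adjusted p = 0.0883), Ms4a1 by -2.45 (SE 1.08, adjusted p = 0.228) and Cd79b by -1.5 (SE 0.49, adjusted p = 0.121), while Cd79a was at -0.05 (SE 0.21, adjusted p = 0.905). Jchain passed when either untreated wild-type array was left out (adjusted p = 0.0183 without replicate 1 and without replicate 2), since its spread in that group enters the shared error. Igkv15-103 differed by -5.25, from 8.85 to 3.6 ± 0.57 (SD, n = 2). This comparison shares the untreated hIAPP arrays with the previous one, so the 2 are not independent.

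In wild-type islets none of the 4 passed for PBA, against 0.292% of all genes. At an unadjusted p under 0.05 there were 2, and Ms4a1, Cd79b and Jchain were lower without overlap, as were 14.9% of all genes. The log2 differences were -2.45 for Ms4a1 (SE 1.08, adjusted p = 0.476), -2.2 for Jchain (SE 0.89, adjusted p = 0.448) and -1.25 for Cd79b (SE 0.49, adjusted p = 0.438). Cd79a differed by 0.1 (adjusted p = 0.905). Igkv15-103 differed by -1.15, and by 0.2 without replicate 1 of untreated wild type.

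Under PBA, 2 of the 4 tested members, Ms4a1 and Jchain, were higher in hIAPP than in wild-type islets without overlap, against 15.6% of all genes. The differences were 1.95 for Ms4a1 (adjusted p = 0.502) and 1.7 for Jchain (adjusted p = 0.484), and no member passed, against 0.415% of all genes, nor had 1 an unadjusted p under 0.05. For the interaction, which asks whether the PBA difference depends on genotype, 1.96% of all genes passed and none of the 4 members did, with 0 at an unadjusted p under 0.05. It was 0.0 for Ms4a1 (SE 1.52, adjusted p = 1.0000), -0.25 for Cd79b (SE 0.7, adjusted p = 0.901), -0.15 for Cd79a (SE 0.3, adjusted p = 0.844) and -0.85 for Jchain (SE 1.26, adjusted p = 0.788). With these errors, a PBA difference of equal size in both genotypes is not shown. Igkv15-103 had an interaction of -4.1.

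**Figure D2:**
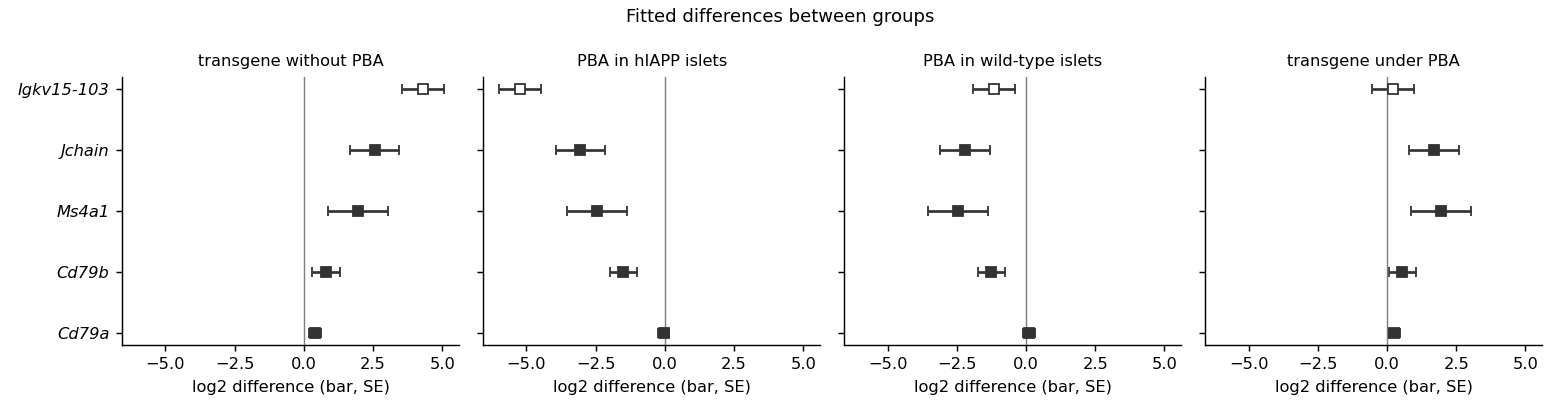
Log2 differences of the 5 measured genes in the 4 comparisons of groups, with bars of 1 standard error of the limma fit on either side. Igkv15-103 is an open square because it was chosen from these arrays. Of the other 4 genes, none passed an adjusted p of 0.05 in any of these comparisons.

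Except for Cd79a, the widest gap between replicates of each of these genes lay in untreated wild type. Replicate 1 of untreated wild type exceeded replicate 2 by 3.2 for Ms4a1, 3.2 for Jchain, 2.7 for Igkv15-103 and 1.3 for Cd79b, but by 0.2 for Cd79a. Only 4 of the 17097 genes had an excess as large as that of Ms4a1 and Jchain, these genes included, and the largest was that of Cxcl13, the chemokine that draws B cells into follicles, at 4.4. In PBA-treated hIAPP islets replicate 1 was higher by 2.2 for Ms4a1 and 1.1 for Cd79b, and lower for Jchain (-1.0) and for Igkv15-103 (-0.8), which was below background on both arrays. Over all genes 0.152% were higher by at least 1 on the former array and 0.45% on the latter.

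No B-lineage gene was higher by at least 1 on replicate 2 of untreated wild type, against 0.0585% of all genes. In PBA-treated wild type 1 B-lineage gene was that much higher on either replicate, against 0.287% of all genes on replicate 1 and 0.105% on replicate 2. In untreated hIAPP islets none was on replicate 1 (0.164% of all genes), and Ly6d and Spib were on replicate 2 (0.304%).

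The wider B-lineage list holds 65 measured genes of 72 listed, which cover immunoglobulin chains, the antigen receptor, B cell identity and plasma cells. Replicate 1 of untreated wild type was higher by at least 1 for 12 of these 65 genes (18.5%) and for 93 of all 17097 (0.544%), while the median difference over the 65 was 0.1. Beside Ms4a1, Jchain, Igkv15-103 and Cd79b, the 12 included Bank1 (2.1), the B-cell coactivator Pou2af1 (1.9), the inhibitory receptor Cd22 (1.8) and the transcription factor Spib (1.4). Leaving out Igkv15-103, which has no test, Cd52 was the only gene of the 12 called for the transgene. On the same array 11 of 13 acinar genes, which mark exocrine tissue around islets, were higher by at least 1, with acinar medians of 12.5 on replicate 1 and 11.2 on replicate 2. None of the 15 macrophage and dendritic cell genes differed by 1 there. Of the T and NK cell list 2 of 18 genes were higher by at least 1, Cd2 (1.3) and Cd3g (1.0). So were 1 of 7 plasmacytoid dendritic cell genes, Klk1, and 1 of 9 genes of lymph node stroma and vessels, Cxcl13. None of the precursor B-cell or germinal centre genes was. In PBA-treated hIAPP islets 10 of 13 acinar genes were instead higher on replicate 2. The part of exocrine tissue in these results was not tested beyond a fit with the acinar level as a covariate.

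**Figure D3:**
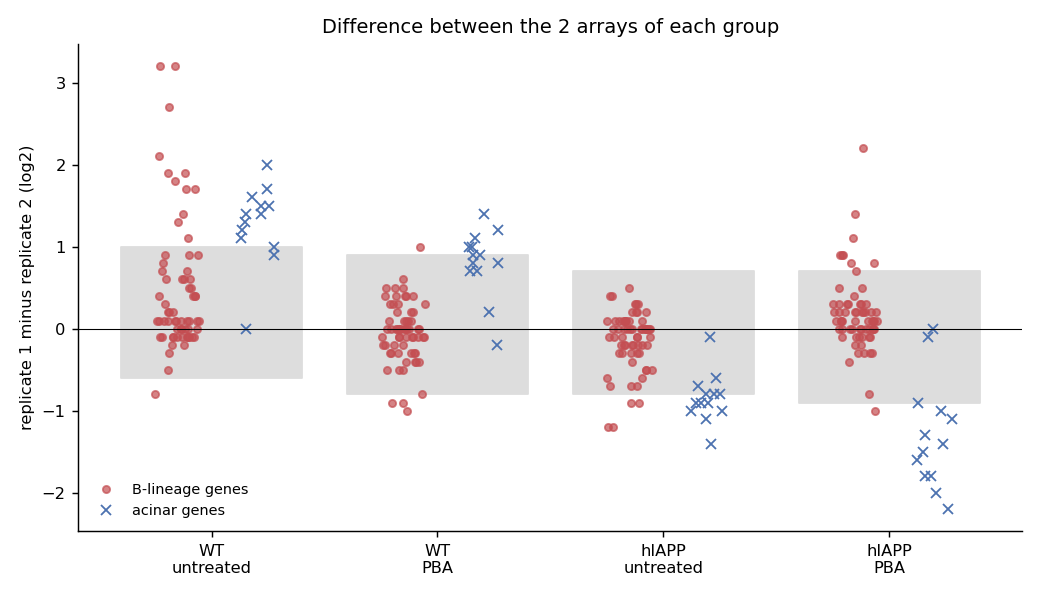
Difference between replicate 1 and replicate 2 (log2) in each of the 4 groups for the 65 B-lineage genes (circles) and 13 acinar genes (crosses), over a grey band that holds the central 99% of all genes. In untreated wild type (WT) 12 B-lineage genes and 11 acinar genes are at least 1 higher on replicate 1, and in PBA-treated hIAPP islets the acinar genes lie on the other side, with 10 at least 1 higher on replicate 2.

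Most immunoglobulin genes counted here, from probe sets that name 1 symbol alone, were below background. Of 15 immunoglobulin genes, on 22 probe sets, 12 had no array above 4.68, and the exceptions were Igkj1, Igkv15-103 and the lambda segment Iglv1. The kappa gene Igk-V21, outside the symbols counted, was above it on 3 arrays by its brightest probe set. These were both of untreated hIAPP (6.1 and 5.0) and replicate 2 of PBA-treated hIAPP (4.8). Igkj1, a kappa joining segment on a probe set of a type that may bind related transcripts, read 11.4 and 9.5 in untreated wild type, 7.6 and 8.4 in PBA-treated wild type, 11.7 and 11.7 in untreated hIAPP, and 9.8 and 10.1 in PBA-treated hIAPP islets. Its groups did not overlap in any of the 4 comparisons, and it passed in none of them, with 1.25 for the transgene (SE 0.55, adjusted p = 0.213) and -1.75 for PBA in hIAPP islets (SE 0.55, adjusted p = 0.107). Iglv1 was highest on replicate 1 of untreated wild type, at 6.0, against 4.0 to 5.0 on the other arrays. Ighm, the heavy chain of IgM, passed for PBA in hIAPP islets (-0.95, SE 0.22, adjusted p = 0.0433), but at 3.0 to 4.1 it was below background on all arrays.

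Across the B-lineage list without Igkv15-103, 15 of 64 genes were called higher and 3 lower in untreated hIAPP islets, where 7.77% of all genes were called higher and 3.19% lower. With Igkv15-103 included, which was picked for its difference between groups, the median over the 65 genes was 0.45. Over all genes it was -0.05. Arrays did not overlap for 36 of the 65 genes that were higher, Igkv15-103 among them, and 3 that were lower, as for 20.8% and 25.2% of all genes. The list was chosen with earlier results of these data known. The 19 calls with Igkv15-103 became fewer whenever a single array was left out, as did the calls over all genes. The fewest B-lineage calls remained without either untreated hIAPP array. Setting all array medians equal lowers the untreated hIAPP arrays by 0.2 relative to the others. With Igkv15-103 counted, 16 higher and 3 lower became 14 and 3, while all genes went from 1329 higher and 545 lower to 1083 and 3266.

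Of 16 genes of the antigen receptor and its signalling, 5 rose and 2 fell with the transgene. Blnk, the adaptor that links the receptor to downstream enzymes, rose from 5.8 and 5.8 to 7.3 and 7.5 (1.6, SE 0.12, adjusted p = 4.9e-04), and Pik3ap1, an adaptor for PI3-kinase, rose by 1.75 (adjusted p = 8.6e-04). Both passed in all 8 fits that left out an array. Fcgr2b, an inhibitory antibody receptor, rose by 1.5 (adjusted p = 0.0034, passing in 6 of 8). Cd81, part of the coreceptor, rose by 0.8 and Plcg2 by 0.8, the latter passing in 2 of 8. Prkcb (-0.75) and Dapp1 (-1.0, passing in 2 of 8) fell. Cd81 and Prkcb averaged 10.4 and 9.175 over the 8 arrays, against 4.86 for Cd79b, and which cells they come from was not tested. Macrophages and other myeloid cells also express Blnk, Pik3ap1, Fcgr2b and Plcg2. In the macrophage and dendritic cell list 10 of 15 genes rose and none fell, with list medians of 7.6 and 6.9 in untreated hIAPP islets and 6.0 and 6.2 in untreated wild type. The part of these cells in the B-lineage calls was not tested.

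Of 19 genes of B cell identity, 7 rose with the transgene and none fell. Cd24a, 1 of the 7, averaged 10.65 over the 8 arrays, against 6.05 for Ms4a1, and its cell source was not tested. Among the 7, Cxcr5 and H2-Ob were above background on 2 arrays each, both of untreated hIAPP islets, and Tnfrsf13c was on 3. Cd83, an activation marker that dendritic cells share, rose from 6.1 and 5.5 to 8.3 and 8.3 (2.5, SE 0.2, adjusted p = 6.5e-04, passing in 8 of 8). Tnfrsf13c, the receptor for the survival factor BAFF, rose from 4.2 and 3.7 to 6.5 and 6.7 (2.65, SE 0.4, adjusted p = 0.0066). It passed in 4 of 8 fits, and failed without either untreated wild-type or either untreated hIAPP array. Ebf1, which stromal cells also express, rose by 1.7 (adjusted p = 0.0088, 5 of 8), Cxcr5, the receptor for Cxcl13, by 1.15 (adjusted p = 0.0147, 3 of 8) and H2-Ob by 1.3 (adjusted p = 0.0412, 2 of 8). Cd52 rose by 1.45 (adjusted p = 0.0481, 1 of 8) and Cd24a by 0.55 (adjusted p = 0.0291, 2 of 8).

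Of 15 plasma cell and secretion genes, 3 rose and 1 fell with the transgene, and the median was 0.2. Pim2, the gene that fell, averaged 7.86 over the 8 arrays, and its cell source was not tested. Pigr, which carries Jchain-bound antibody across epithelia and is made by epithelial cells, rose by 1.3 (SE 0.17, adjusted p = 0.0036, 5 of 8). Derl3 (0.8) and Fkbp11 (0.45), proteins of the endoplasmic reticulum that other secretory cells use, rose, each passing in 4 of 8 fits. The kinase Pim2 fell by 0.7 on the log2 scale (adjusted p = 0.0050, 8 of 8).

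With PBA in hIAPP islets, 12 of the 64 B-lineage genes were called lower and 1 higher, where 6.32% and 1.78% of all genes were. The median over the 65 genes was -0.4, against 0.0 over all genes. Without overlap 43 of the 65 genes were lower, Igkv15-103 among them, and 2 higher, as were 20.8% and 22.6% of all genes. The 14 calls with Igkv15-103 became fewer without any 1 hIAPP or PBA-treated wild-type array, as did the calls over all genes. Of the genes called higher with the transgene, 8 were called lower here, from comparisons that share arrays. Blnk fell to 5.8 on both arrays (-1.6, adjusted p = 0.0013, 8 of 8), Pik3ap1 by 1.45 on the log2 scale (adjusted p = 0.0029, 7 of 8) and Cd83 by 2.0 (adjusted p = 0.0025, 6 of 8). Tnfrsf13c fell by 2.4 (adjusted p = 0.0134, 2 of 8), its PBA-treated arrays being at 4.9 and 3.5.

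Pou2af1, a coactivator of immunoglobulin promoters, read 5.7 and 6.6 in untreated and 3.7 and 3.5 in PBA-treated hIAPP islets, and fell (-2.55, SE 0.56, adjusted p = 0.0359, 2 of 8). Tnfrsf13b, a receptor for B-cell survival factors, fell by 1.15 (adjusted p = 0.0318, 2 of 8) and Cd37 by 1.65 (adjusted p = 0.0362, 0 of 8). Pim2 was the gene called higher, by 0.6 (adjusted p = 0.0129, 4 of 8). Of these genes, Tnfrsf13b was above background on 2 arrays and Cd37 on 3. Acinar genes moved with this comparison, at list medians of 11.7 and 12.6 without PBA and 9.3 and 10.6 with it. With the acinar level as a covariate, 0 B-lineage genes and 41 of all genes passed for PBA in hIAPP islets by limma. At an unadjusted p under 0.05 there were 13 of the 65, a level not counted over all genes. In that fit the difference of Jchain was -1.04 in place of -3.05. It was -1.99 in place of -2.45 for Ms4a1, -1.23 in place of -1.5 for Cd79b and 0.21 in place of -0.05 for Cd79a. The macrophage list had 9 of 15 genes called lower.

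For PBA in wild-type islets limma called 0 of the 65 B-lineage genes, with a median of -0.2 and 27 genes lower and 7 higher without overlap, against 14.9% and 13.6% of all genes. At an unadjusted p under 0.05 there were 13, a level not counted over all genes. With the trend and robust options of its variance prior together, limma called 3, and 300 of all genes. Under PBA, Pik3ap1 (1.4) and Blnk (0.8) were called higher in hIAPP islets and none lower, against 0.316% and 0.0994% of all genes. Both passed in 0 of the 8 fits that left out an array. Of the B-lineage genes, the interaction called Cd83 lower (-1.85, adjusted p = 0.0298, 0 of 8) and none higher, against 1.69% and 0.269% of all genes.

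**Figure D4:**
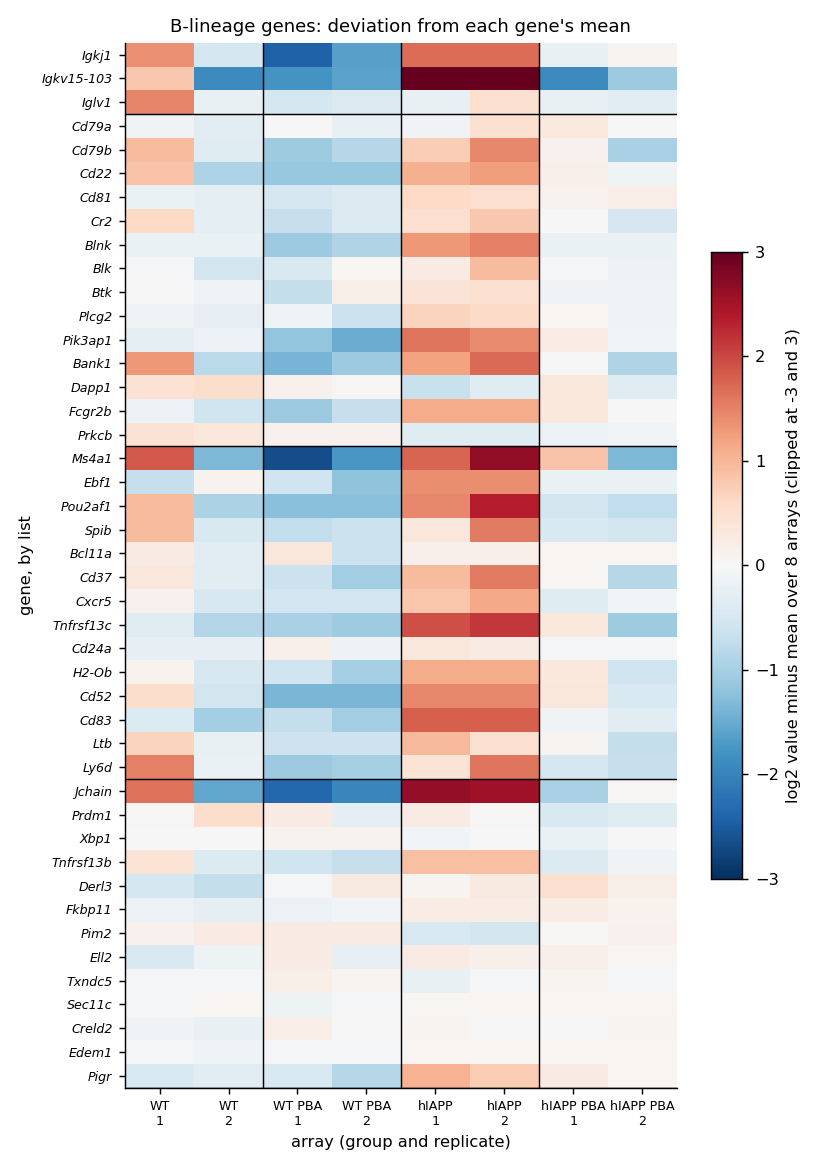
Log2 values of the 44 B-lineage genes with an array above background, each relative to its own mean over the 8 arrays and limited to 3 in either direction, by array. Many genes are high on both untreated hIAPP arrays, and a smaller number, Ms4a1, Jchain and Bank1 among them, also on replicate 1 of untreated wild type.

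Genes of other stages and of the tissue around B cells were read from lists of their own, to be set beside the 7.77% of all genes called higher for the transgene and the 6.32% called lower for PBA in hIAPP islets. All 5 precursor B-cell genes measured, Rag1 among them, were below background on all arrays. Of 6 germinal centre genes, Bcl6 (1.4, adjusted p = 0.0038) and S1pr2 (0.65, adjusted p = 0.0100) rose with the transgene, and S1pr2 was below background throughout. Among 12 attracting and survival factors, 4 rose with the transgene and 4 fell with PBA in hIAPP islets. Ccl21b, which draws lymphocytes into lymphoid tissue, read 5.0 and 5.6 in untreated wild type, 7.9 and 8.0 in untreated hIAPP, and 3.8 and 4.3 in either PBA-treated group, with differences of 2.65 (adjusted p = 0.0013) and -3.9 (adjusted p = 0.0011). Ccl19 rose by 2.25 and Tnfsf13, the survival factor APRIL, by 1.1. Cxcl13 read 11.4 and 7.0, 7.0 and 7.7, 10.3 and 10.6, and 8.1 and 4.8 in the order of groups used above and passed in neither comparison. Of 18 T and NK cell genes, Cd3d was the 1 that rose with the transgene (1.15, adjusted p = 0.0100, 4 of 8) and fell with PBA in hIAPP islets (-1.2, adjusted p = 0.0118, 3 of 8). It was above background on 2 arrays.

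The genes nearest to each member in pattern were taken by Pearson's r over the 8 arrays among 10977 genes with an array above background, as a description in which group differences and shared arrays enter. Cd79b was nearest to the complement receptor Cr2 (0.990) and to Bank1 (0.984), and Ms4a1 to Bank1 (0.982) and Cr2 (0.978). The r between Cd79b and Ms4a1 was 0.974. Jchain was nearest to Tnfrsf13b (0.985) and Lgals1 (0.981), and Igkv15-103 to Cfp (0.989) and Plvap (0.988). Fn1, which encodes fibronectin, was among the nearest 5 of both Ms4a1 (0.962) and Jchain (0.968). Cd79a was nearest to Fam161a (0.940) and Nipal2 (0.937). For both Cd79a and Igkv15-103, none of the nearest 5 was a gene of the B-lineage list.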

How the data were processed

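The authors deposited log2 values made with RMA (background subtraction, quantile normalisation, summary of probes), with the affy package named per the submitters' processing notes and no version given. Values are rounded to 1 decimal. Of 45141 probe sets, 104 were controls, 28898 named 1 gene symbol, 551 several and 15588 none. The probe set with the highest mean stood for each of 17097 genes. Limma 3.58.1 in R 4.3.3 fitted 4 group means to all 8 arrays (4 residual degrees of freedom), two-sided, with Benjamini-Hochberg adjustment over all genes and a threshold of 0.05. The fit was tested on simulated data. Differences are log2, each with its standard error (SE). The members, lists and rules for named genes (highest means and smallest p of each list, and nearest patterns) were chosen with earlier results of these data known. Genes outside that rule are named where they are calls of a list or carry a promoter. Array medians were 5.9 on untreated hIAPP arrays and 5.7 on the others, and hybridisation controls had a median of 6.95 on replicate 1 of PBA-treated wild type and 9.8 to 10.2 elsewhere. Only 2 arrays per group limit the precision. Tables were handled with pandas 2.3.3 and plotted with matplotlib 3.10.9 in Python 3.11.15.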

Additional observations from a re-analysis of the deposited data

How the results depend on the processing

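Rounding to 1 decimal, dim probe sets and 2 arrays per group limit these values, and the cause of a change between settings was not tested. Of 316 values of the 4 tested members under an alternative, 14 reversed and 3 became stronger, all 3 of Jchain. The other 299 neither reversed nor changed their side of the threshold. Among these are values of 0.0 and the Ms4a1 interaction, which at 0.0 in the main fit had no direction to keep. That interaction ran from -1.6 to 1.6 without each array. Of 79 values of Igkv15-103, which has no test, 69 stayed within its spread, 2 reversed and 8 moved. The counts of B-lineage calls below include Igkv15-103, although it was picked for its difference between groups.

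Calls among the B-lineage genes for the transgene were 19, and 3 with only the 4 arrays compared, 3 without replicate 1 of both PBA-treated groups, and 6 to 17 without each array in turn. For PBA in hIAPP islets the 14 calls became 1, 0 and 1 to 14 in that order, 22 with limma's trend and robust options set together and 0 with the acinar covariate. For PBA in wild-type islets 0 calls became 2 with a filter on low values, 2 with the mean of probe sets and 3 with those 2 options, and stayed 0 without each array. Under PBA the 2 transgene calls became 0 with only 4 arrays, 0 without both replicates 1, 0 with the replicate block, 5 with those 2 options, 0 with the acinar covariate and 0 without each array. The interaction call became 0 without both replicates 1, 2 with the filter, 3 with the mean of probe sets, 4 with those 2 options, 0 with the acinar covariate and 0 without each array.

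Over all genes, the 1874 transgene calls became 483 with only 4 arrays, 483 without both replicates 1, 4349 with medians set equal and 572 to 1578 without each array. The 1384 for PBA in hIAPP islets became 14, 0, 3500 (2612 higher and 888 lower) and 166 to 968, with 2292 by those 2 options and 41 with the acinar covariate. The 50 for PBA in wild-type islets became 0, 0 and 0 to 2, with 80 by the filter and 300 by those 2 options. The 71 for the transgene under PBA became 0, 1 and 5 to 13, with 349 by those 2 options and 4 with the acinar covariate. The 335 of the interaction became 0 without both replicates 1, 1060 by those 2 options, 0 with the acinar covariate and 0 to 3 without each array; a fit of only 4 arrays cannot give it.

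Same-numbered replicates correlated at -0.14 to 0.10 in their deviations over all genes, dim ones included. Whether they share more than a number cannot be told from this. With the replicate block, calls over all genes were 1482, 1027, 5, 15 and 118 in the order above, and B-lineage calls were 16 for the transgene and 10 for PBA in hIAPP islets.

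Cd79a reversed for PBA in hIAPP islets to 0.15 with medians set equal and 0.21 with the acinar covariate (-0.35 to 0.25 without each array), and in the interaction to 0.05 and 0.11 (-0.45 to 0.15 without each array). Cd79b reversed under PBA to -0.1 without both replicates 1, and in the interaction to 0.02 with the acinar covariate (-0.9 to 0.4 without each array, with 0.1 and 0.3 among them). The interaction of Jchain reversed to 1.16 with the acinar covariate and ran from -2.45 to 0.75 without each array. Without each array Igkv15-103 ran from -2.5 to 0.2 for PBA in wild-type islets and from -0.2 to 0.6 for the transgene under PBA, and moved to -3.3 for PBA in hIAPP islets, 1.88 under PBA and -2.15 in the interaction with the acinar covariate.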

Other observations

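Beside the B-lineage genes, replicate 1 of untreated wild type exceeded replicate 2 most for Cxcl13 (4.4) and for the kallikrein gene Klk1b5 (3.6). Differences of at least 1 in the other direction were seen for 10 of the 17097 genes (0.0585%). In PBA-treated hIAPP islets replicate 1 was higher by at least 1 for 26 genes (0.152%) and replicate 2 for 77 (0.45%), and Cxcl13 was again the gene with the largest excess on replicate 1 (3.3).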
